A study of Mus musculus with 6 samples.

Results

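The genes described are 10 members of the matrix metalloproteinase (MMP) system in cultured mouse macrophages, namely Mmp2, Mmp8, Mmp9, Mmp12, Mmp13, Mmp14 and Mmp19 and the inhibitor genes Timp1, Timp2 and Timp3. They were taken by symbol from a table of 54446 genes, and all 10 symbols were found. Their transcripts were measured by RNA sequencing of total RNA from bone marrow-derived macrophages (BMDMs), cells that are grown out of marrow in culture, of 6-week-old C57BL/6 mice. The 3 groups of 2 samples were BMDMs given PBS, the buffer control, BMDMs given 5 µM KN93 and BMDMs given 10 µM KN93. KN93 is a small molecule that blocks calcium/calmodulin-dependent kinases. The labels leave out the time on KN93, the way the macrophages were differentiated and the number of mice behind a sample. They also do not call replicates separate cultures, so the spread that the p-values measure may be a technical one.

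MMPs are zinc-dependent proteases that cut collagens, elastin, fibronectin and many cell surface proteins. They are made as inactive precursors whose propeptide must be removed, by plasmin, by furin inside the cell or by other MMPs. Tissue inhibitors of metalloproteinases (TIMPs) bind the active site of the mature enzyme, and the TIMP made alongside a protease limits how much matrix it can cut. Macrophages are known as a main source of Mmp9 and Mmp12, while fibroblasts are known to make much Mmp2, Mmp13 and Timp3 and neutrophils to store Mmp8 and Mmp9.

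Values are FPKM, fragment counts scaled to gene length and to the total of the sample. The length that fits the values is all annotated exon bases of a gene, 7237 for Mmp12, 8144 for Timp3 and 3539 for Mmp9. Where the transcripts present use only part of these bases, FPKM understates the level. The order of genes, their shares of a sum and ratios between sums are therefore approximate, while a gene's own change between groups does not use its length. Each sample held between 24172000 and 28384500 fragments, the total that the steps between low FPKM values imply. The fragments behind a member's value ran from 203 for Mmp13 in a 10 µM sample to 13875 for Mmp14 in a PBS sample, and every member was above 1 FPKM in all 6 samples.

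All 10 macrophage markers examined were expressed, with Lyz2, Cd68, Csf1r and Adgre1 at 327 FPKM or more in every sample. Their summed level, most of it Lyz2, was 18307 to 18843 FPKM with PBS, 14355 to 14831 FPKM at 5 µM and 8318 to 9161 FPKM at 10 µM. Its members did not move alike. Cd14 was at 389 and 381 FPKM with PBS, 88.2 and 71.0 FPKM at 5 µM, and 33.1 and 38.2 FPKM at 10 µM. Adgre1, Csf1r, Itgam, Lyz2, Mrc1 and Ptprc were also lower at each dose than with PBS. Mertk was higher than with PBS at 5 µM, at 64.4 and 71.1 FPKM against 53.1 and 56.3 FPKM, and lower at 10 µM. Fcgr1 overlapped PBS at both doses. Cd68 was at 842 and 861 FPKM with PBS, 1532 and 1508 FPKM at 5 µM, and 1396 and 1511 FPKM at 10 µM. Of the 12 fibroblast and stromal markers, 10 were also expressed. The summed level of this list, most of it Col1a1, Acta2, Col1a2 and Tagln, was 1955.5 to 2000 FPKM with PBS, 535 to 648 FPKM at 5 µM and 379.8 to 399 FPKM at 10 µM. Dcn and Pdgfra overlapped PBS at 10 µM. Dcn was at 2.32 and 1.82 FPKM against 2.01 and 2.56 FPKM with PBS, and Pdgfra at 1.97 and 0.706 FPKM against 1.38 and 0.841 FPKM with PBS. The other expressed stromal markers lay below PBS at 10 µM. The summed level of 10 neutrophil markers, of which 5 were expressed, was 115 FPKM in each PBS sample, 37.1 to 42.8 FPKM at 5 µM and 5.22 to 7.32 FPKM at 10 µM. The summed level of 7 osteoclast markers, of which 3 were expressed, was 109 to 111 FPKM with PBS, 177 to 180.3 FPKM at 5 µM and 179 to 194 FPKM at 10 µM. Within it, Atp6v0d2 was higher at 10 µM, at 106 and 114 FPKM against 22.7 and 27.4 FPKM with PBS, and Acp5 was lower, at 49.6 and 56.4 FPKM against 74.9 and 66.3 FPKM with PBS. No marker of these lists was at 0 in all samples. The stromal and neutrophil lists were uneven. With PBS, Acta2 stood at 657 and 672 FPKM, Tagln at 152 and 166 FPKM and Postn at 29.7 and 29.2 FPKM, while Lum and Thy1 stayed under 0.61 FPKM in every sample. Of the neutrophil list, S100a9 stood at 45.3 and 48.9 FPKM and Ngp at 27.3 and 24.1 FPKM with PBS, while Ly6g stayed at or under 0.112 FPKM in every sample. In bulk RNA, fewer cells of a type and less RNA per cell cannot be told apart. The macrophage, stromal and neutrophil sums were lower than with PBS at each dose, as were most of the genes described below, and the osteoclast sum was higher. The part of these sums in the results was not tested.

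With PBS, the member with the highest FPKM was Timp1 at 203 ± 16.2 FPKM (SD, n = 2, as for all group means here). Mmp9 followed at 116 ± 3.92 FPKM, ahead of Timp2, Mmp14, Mmp2 and Timp3, which lay between 58.8 and 94.8 FPKM. Mmp12 averaged 40.9 ± 3.25, Mmp8 21.6 ± 0.387, Mmp19 14.7 ± 0.921 and Mmp13 9.82 ± 1.95 FPKM. No neighbours in this order overlapped in their samples. At 5 µM KN93 the order was Timp1, Timp2, Mmp14, Mmp2, Mmp12, Mmp9, Timp3, Mmp8, Mmp19 and Mmp13, and the samples of Timp3 and Mmp8 overlapped. At 10 µM the order was the same, with overlaps between Timp2 and Mmp14 and between Mmp8 and Mmp19. Mmp9, the highest of the MMPs in FPKM with PBS, was therefore the fourth of the 7 at both doses.

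**Figure D1:**
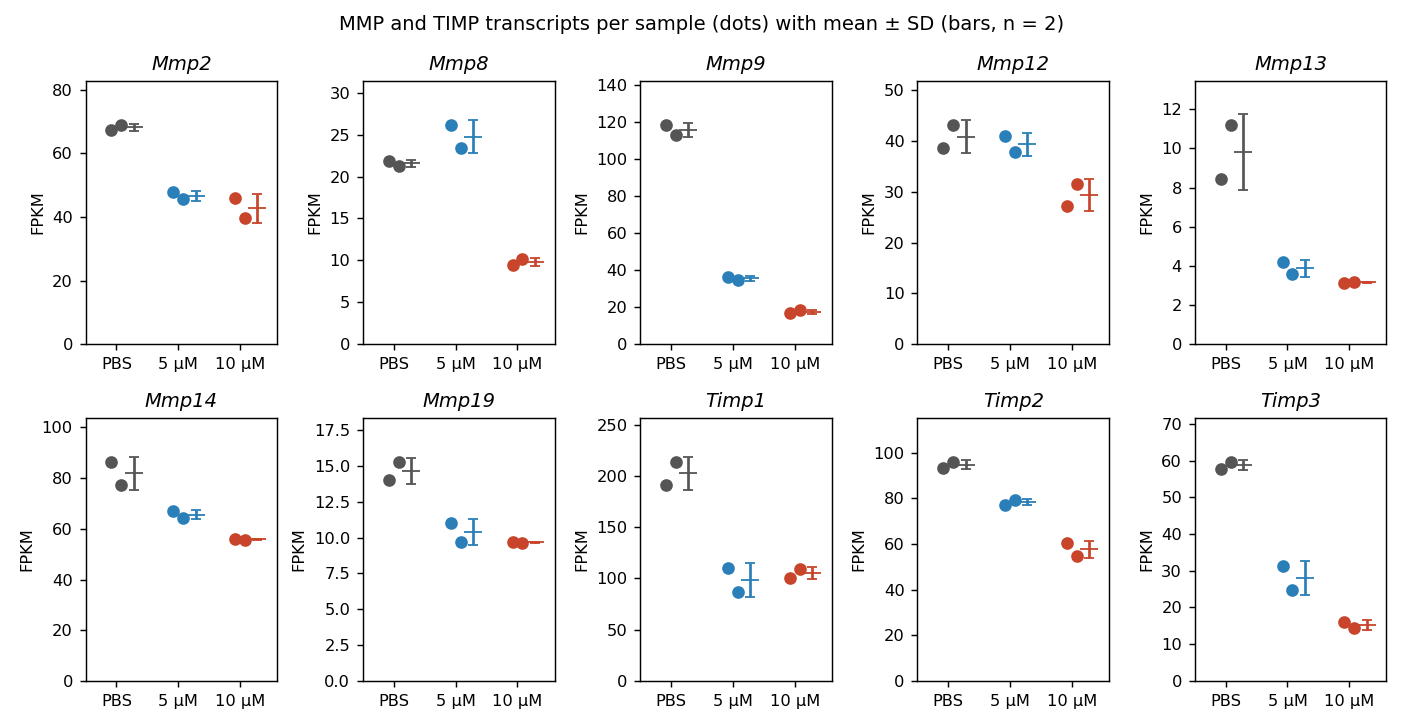
FPKM of each member (vertical axis, its own scale from 0 in each panel) in the samples given PBS, 5 µM KN93 and 10 µM KN93, with dots for samples and bars for the mean ± SD of 2. Mmp9 is at 118 and 113 FPKM with PBS and at 18.3 FPKM or less at 10 µM, while Mmp8 and Mmp12 are low at 10 µM and not at 5 µM.

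All 10 members fell at 10 µM KN93 and 8 fell at 5 µM, and none rose at either dose. A gene was called where limma gave a Benjamini-Hochberg adjusted p under 0.05 over the 12722 genes tested. At 10 µM against PBS, 22% of all genes tested were called lower, 28.5% higher and 50.5% in either direction. These were 2796 genes lower and 3631 higher, and with median-of-ratios scaling 3219 lower and 2955 higher, with all 10 members still lower. At 5 µM against PBS, 15.4% were called lower, 15.1% higher and 30.5% in either direction. The median log2 change of the members was -0.82 at 10 µM, against 0.05 over all genes tested, and -0.50 at 5 µM, against 0.01 over all genes tested. At 10 µM every member's samples lay below both PBS samples, as for 32.6% of all genes tested, and no member lay above them, as 44.2% of all genes did. At 5 µM this held for 8 members, as for 33% of all genes, while Mmp8 lay above both PBS samples, as for 37% of all genes, and Mmp12 overlapped them. The comparisons with PBS share the PBS samples.

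Between 10 µM and 5 µM, Mmp8, Mmp9, Mmp12, Timp2 and Timp3 fell further and none rose. That is 5 of 10, where 8.5% of all genes tested were called lower, 11.4% higher and 19.9% in either direction. Over all genes, 1455 were called higher and 1081 lower in this comparison, and 1097 and 1317 with median-of-ratios scaling. The members called were 3 without the 5 µM replicate 2, where the calls of Mmp12 and Timp2 were lost. For 8 members both 10 µM samples lay below both 5 µM samples, as for 26% of all genes, and Mmp2 and Timp1 overlapped. No member lay above them, as 37.7% of all genes did.

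**Figure D2:**
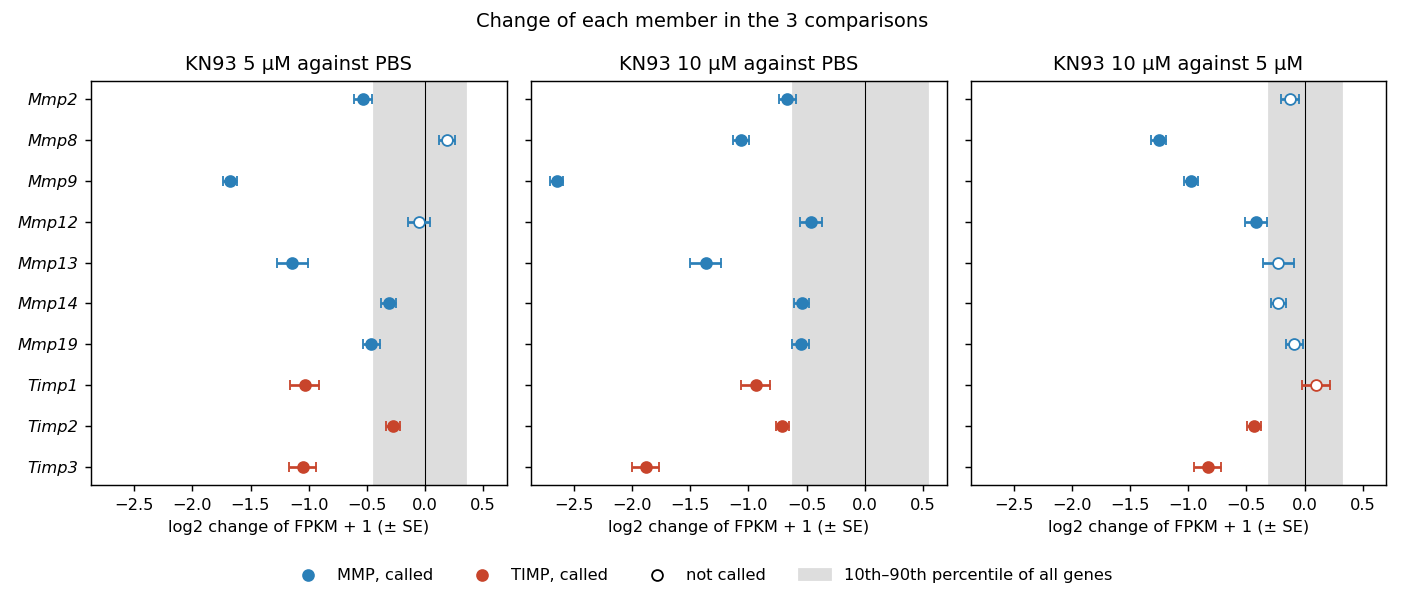
Log2 change of FPKM + 1 with its standard error from limma (horizontal axis) for each member, in 1 panel per comparison, with filled dots for called genes, open dots for genes not called and a grey band for the 10th to 90th percentile of all genes tested. Mmp9 lies farthest to the left in both comparisons with PBS, at -1.67 and -2.65, and Timp1 is the member to the right of 0 between the doses, at 0.10 and not called.

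Mmp9 and Mmp2 encode the gelatinases, which cut denatured collagen and the collagen of basement membranes. Mmp9 (ENSMUSG00000017737, GRCm38 chromosome 2, 164940780 to 164955850) had the largest fall of the members at each dose. It stood at 118 and 113 FPKM with PBS, 36.4 and 34.7 FPKM at 5 µM, and 16.9 and 18.3 FPKM at 10 µM. The groups lay far apart compared with the spread inside each of them. At 5 µM the mean was 30.7% of the PBS mean, and at 10 µM it was 15.2%. The log2 change against PBS was -1.67 ± 0.06 (SE) at 5 µM (limma adjusted p = 0.000148) and -2.65 ± 0.06 at 10 µM (limma adjusted p = 1.25e-05). At 10 µM against 5 µM it fell by 0.98 on the log2 scale (limma adjusted p = 0.00108).

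The step in Mmp9 from 5 µM to 10 µM was smaller than the step from PBS to 5 µM by 0.70 ± 0.10 on the log2 scale (limma adjusted p = 0.031), a difference of steps called for 5.36% of all genes tested and for 3 of the members. That call was lost in each fit without 1 of the 6 samples, with adjusted p = 0.0517 to 0.202. The range over 14 alternatives was 0.00764 to 0.202.

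Mmp2 (ENSMUSG00000031740, GRCm38 chromosome 8, 92827291 to 92853420), the gelatinase that mesenchymal cells make widely, changed less. It stood at 67.4 and 68.9 FPKM with PBS, 47.8 and 45.6 FPKM at 5 µM, and 45.9 and 39.6 FPKM at 10 µM. Both doses lay below PBS, and the samples of the doses overlapped each other. The log2 change was -0.54 ± 0.08 at 5 µM and -0.66 ± 0.08 at 10 µM (limma adjusted p = 0.00568 and 0.00119). Between 10 µM and 5 µM the log2 change was -0.13 ± 0.08 (limma adjusted p = 0.285). Summed stromal markers were lower in the same samples, as given above, and their part in the Mmp2 values was not tested.

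Mmp8 and Mmp13 encode collagenases, which cut fibrillar collagen, and Mmp12 encodes macrophage elastase, named for its action on elastin. These 3 genes lie in a cluster of 10 MMP genes on chromosome 9. Mmp13 was called lower at both doses, while Mmp8 and Mmp12 were called lower at 10 µM and not at 5 µM, and a difference between the genes was not tested. Mmp13 (ENSMUSG00000050578, GRCm38 chromosome 9, 7272514 to 7283331) was low already at 5 µM. It stood at 8.44 and 11.2 FPKM with PBS, 4.19 and 3.56 FPKM at 5 µM, and 3.14 and 3.18 FPKM at 10 µM. The PBS samples differed from each other by more than the means of the doses did. The log2 change was -1.14 ± 0.13 at 5 µM and -1.37 ± 0.13 at 10 µM (limma adjusted p = 0.00296 and 0.000632), and between 10 µM and 5 µM it was -0.23 ± 0.13 (limma adjusted p = 0.274).

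Mmp8 (ENSMUSG00000005800, GRCm38 chromosome 9, 7558456 to 7568485) fell at 10 µM and not at 5 µM. It stood at 21.9 and 21.3 FPKM with PBS, 26.2 and 23.4 FPKM at 5 µM, and 9.43 and 10.1 FPKM at 10 µM. The 5 µM samples were the highest of the 6 and the 10 µM samples the lowest. At 5 µM the log2 change against PBS was 0.19 ± 0.07 and not called (limma adjusted p = 0.0909). At 10 µM it was -1.07 ± 0.07 against PBS (limma adjusted p = 0.000155) and -1.26 ± 0.07 against 5 µM (limma adjusted p = 0.000881).

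The steps of Mmp8 differed by -1.44 ± 0.12 on the log2 scale, the step to 10 µM being the lower (limma adjusted p = 0.0158, range over 14 alternatives 0.00126 to 0.0866). That call was lost without the 5 µM replicate 1 (adjusted p = 0.0682), without the 5 µM replicate 2 (adjusted p = 0.0866), without the 10 µM replicate 1 (adjusted p = 0.0573) and with no expression filter (adjusted p = 0.0535). In the same samples the summed neutrophil markers were lower at 5 µM than with PBS and lower again at 10 µM. Their part in the Mmp8 values was not tested.

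Mmp12 (ENSMUSG00000049723, GRCm38 chromosome 9, 7344381 to 7369499) had the smallest fall of the members at 10 µM against PBS. It stood at 38.6 and 43.1 FPKM with PBS, 41.0 and 37.8 FPKM at 5 µM, and 27.1 and 31.6 FPKM at 10 µM. The 5 µM and PBS samples overlapped, and the 10 µM samples lay below all 4. The log2 change was -0.05 ± 0.09 at 5 µM against PBS (limma adjusted p = 0.723). At 10 µM it was -0.47 ± 0.09 against PBS (limma adjusted p = 0.00932) and -0.42 ± 0.09 against 5 µM (limma adjusted p = 0.033, range over 15 alternatives 0.00927 to 0.138). The call between the doses was lost without the 5 µM replicate 1 (adjusted p = 0.138), without the 5 µM replicate 2 (adjusted p = 0.0897), without the 10 µM replicate 1 (adjusted p = 0.104) and with no expression filter (adjusted p = 0.106).

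The cluster runs from 7272514 to 7699585 on chromosome 9 in the order Mmp13, Mmp12, Mmp1b, Mmp3, Mmp1a, Mmp10, Mmp8, Mmp27, Mmp20 and Mmp7. Besides the 3 members only Mmp27, the direct neighbour of Mmp8, passed the expression filter of 1 FPKM in 2 samples. Mmp27 stood at 8.09 and 7.97 FPKM with PBS, 7.40 and 8.03 FPKM at 5 µM, and 3.71 and 2.53 FPKM at 10 µM. It fell at 10 µM, with a log2 change of -1.15 against PBS and -1.09 against 5 µM (limma adjusted p = 0.00127 and 0.00574), while its log2 change at 5 µM was -0.05 (limma adjusted p = 0.807). Mmp1a, Mmp1b and Mmp20 were listed at 0 in all samples, and Mmp7 had at most 1 fragment. Mmp3, which encodes stromelysin 1, held 106 fragments in the 5 µM replicate 2, none in the 5 µM replicate 1 and 19 or fewer in each other sample, so it gave no group value to compare. Mmp12 shares 157 exon bases with Mmp1b on the opposite strand, and Mmp1b was at 0.

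**Figure D3:**
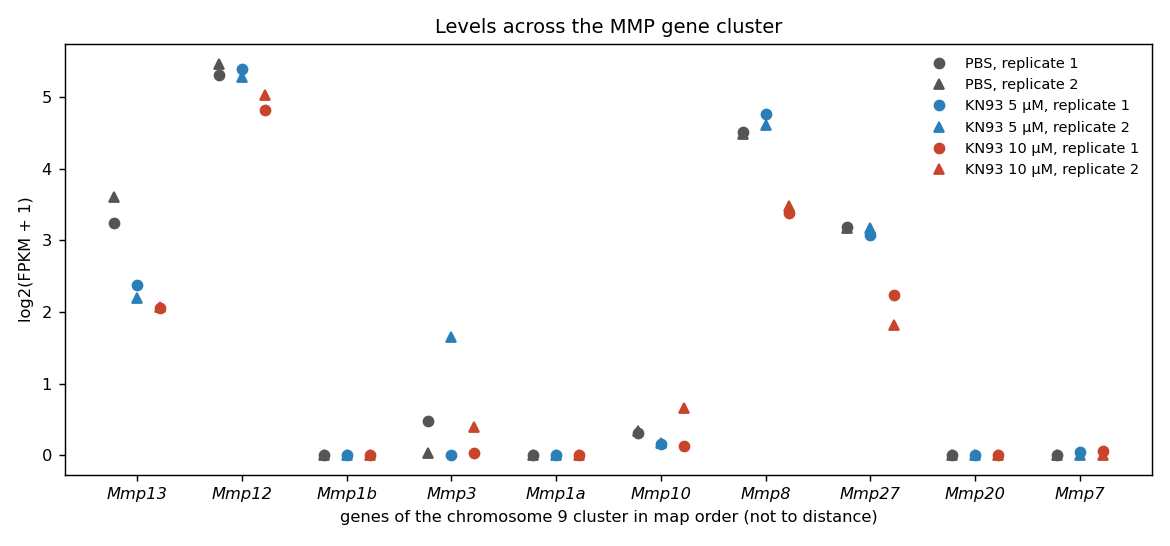
Log2(FPKM + 1) of the 10 MMP genes of the chromosome 9 cluster (vertical axis) in map order (horizontal axis, not to distance), with colours for PBS, 5 µM KN93 and 10 µM KN93 and symbols for replicates. Mmp13 drops by 5 µM, whereas Mmp8 and its neighbour Mmp27 drop at 10 µM and are not called at 5 µM. The lone high Mmp3 dot is the 5 µM replicate 2.

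The upstream sequences of the cluster members are shown because Mmp13, Mmp12 and Mmp8 lie in a single cluster and Mmp13 alone of the 3 was called at 5 µM. AP-1, a dimer of Fos and Jun proteins, is known to bind the Mmp13 promoter, and its site was searched as TGANTCA. The ETS site of the PEA3 type was searched as AGGAAGT and the TATA box as TATAA, on both strands of the 300 bases from 250 before to 50 after each start in RefSeq (build GRCm38.p6). RefSeq windows were found for 7 of the 10 members, Mmp8, Mmp12, Mmp13, Mmp14, Timp1, Timp2 and Timp3. Below are the 110 bases before a start, 5′ to 3′ on the plus strand, at chr9:7272404-7272513 for Mmp13, chr9:7347264-7347373 for the second of the Mmp12 starts and chr9:7558319-7558428 for Mmp8, with whole matches to TGANTCA or TATAA in capitals.
Mmp13: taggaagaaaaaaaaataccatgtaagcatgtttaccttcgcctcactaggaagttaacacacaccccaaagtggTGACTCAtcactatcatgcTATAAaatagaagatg
Mmp12: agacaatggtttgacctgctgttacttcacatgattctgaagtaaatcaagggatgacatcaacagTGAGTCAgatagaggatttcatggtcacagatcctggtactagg
Mmp8: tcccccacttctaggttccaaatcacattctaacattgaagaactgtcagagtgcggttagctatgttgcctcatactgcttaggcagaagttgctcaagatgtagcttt

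TGANTCA was present in the windows of Mmp13 and of the second Mmp12 start, its first base at -35 and -44 from the start, and in no window of the other 5 members. Of all 32851 windows, 7.81% held it. AGGAAGT was found in the windows of Mmp13, the other Mmp12 start, Mmp8 and Timp1, and in 9.35% of all windows. TATAA was found at Mmp13, the second Mmp12 start, Mmp8 and Timp3, and in 24.9% of all windows. Its first base lay before the start at Mmp13 (-16) and Timp3 (-44). At Mmp8 the matches ran across the start (first base at -2 and -1), and at the second Mmp12 start they lay after it (1 and 4). The window of the other Mmp12 start, from 7344147 to 7344446, held no TGANTCA. These matches are a description and say nothing of binding in these cells.

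Mmp14 and Mmp19 fell modestly. Mmp14 encodes the membrane-anchored MT1-MMP, which activates the Mmp2 precursor on the cell surface in a complex with Timp2. Mmp14 (ENSMUSG00000000957, GRCm38 chromosome 14, 54431612 to 54445364) stood at 86.5 and 77.2 FPKM with PBS, 66.9 and 64.3 FPKM at 5 µM, and 56.1 and 55.6 FPKM at 10 µM. No groups overlapped. The log2 change against PBS was -0.31 ± 0.06 at 5 µM (limma adjusted p = 0.0174) and -0.54 ± 0.06 at 10 µM (limma adjusted p = 0.00134).

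The 5 µM call of Mmp14 did not hold without the PBS replicate 1 (adjusted p = 0.0707), without the 5 µM replicate 1 (adjusted p = 0.0594), without the 5 µM replicate 2 (adjusted p = 0.0899) and with no expression filter (adjusted p = 0.0501), and the smallest over 15 alternatives was 0.00373. Between 10 µM and 5 µM the log2 change of Mmp14 was -0.23 ± 0.06 (limma adjusted p = 0.0602, range over 15 alternatives 0.0304 to 0.213). It passed the test in 7 of them, among them without the PBS replicate 1 and without the PBS replicate 2 (adjusted p = 0.0471 each).

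Mmp19 (ENSMUSG00000025355, GRCm38 chromosome 10, 128790910 to 128800824), a secreted MMP that cuts basement membrane proteins, stood at 14.0 and 15.3 FPKM with PBS, 11.0 and 9.72 FPKM at 5 µM, and 9.68 and 9.64 FPKM at 10 µM. Both doses lay below PBS, with little between them. The log2 change was -0.46 ± 0.07 at 5 µM and -0.55 ± 0.07 at 10 µM (limma adjusted p = 0.00793 and 0.00204), and -0.09 ± 0.07 between 10 µM and 5 µM (limma adjusted p = 0.429). Mmp19 shares 789 exon bases with Tmem198b on the opposite strand, a gene at 3.60 to 4.77 FPKM, and without a stated use of strand their fragments cannot be told apart there.

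The inhibitors fell as well, at each dose. Timp2 and Timp3 were also called lower at 10 µM against 5 µM, and Timp1 was not. Timp1 (ENSMUSG00000001131, GRCm38 chromosome X, 20870166 to 20874735), a secreted inhibitor that also binds the Mmp9 precursor, reached its low level at 5 µM. It stood at 191 and 214 FPKM with PBS, 110.5 and 87.2 FPKM at 5 µM, and 101 and 109.7 FPKM at 10 µM. The doses overlapped each other and lay far below PBS. The log2 change was -1.04 ± 0.12 at 5 µM and -0.94 ± 0.12 at 10 µM (limma adjusted p = 0.00329 and 0.00192), and 0.10 ± 0.12 between 10 µM and 5 µM (limma adjusted p = 0.609).

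The steps of Timp1 differed by 1.13 ± 0.21 on the log2 scale, the step to 10 µM being the higher (limma adjusted p = 0.0459, range over 14 alternatives 0.0101 to 0.205). That call was lost in 10 of 14 alternatives, among them each fit without 1 of the 6 samples, with adjusted p = 0.0725 to 0.205.

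Timp2 (ENSMUSG00000017466, GRCm38 chromosome 11, 118301069 to 118355740), which bridges Mmp14 and the Mmp2 precursor, stood at 93.4 and 96.2 FPKM with PBS, 77.4 and 79.2 FPKM at 5 µM, and 60.4 and 54.9 FPKM at 10 µM. No groups overlapped. The log2 change against PBS was -0.27 ± 0.06 at 5 µM (limma adjusted p = 0.0199) and -0.71 ± 0.06 at 10 µM (limma adjusted p = 0.00036), and -0.44 ± 0.06 between 10 µM and 5 µM (limma adjusted p = 0.0074).

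The 5 µM call of Timp2 was lost without the PBS replicates 1 and 2 in turn (adjusted p = 0.0726 and 0.0959), without the 5 µM replicates 1 and 2 in turn (adjusted p = 0.0968 and 0.075), with quantile normalization (adjusted p = 0.0563) and with no expression filter (adjusted p = 0.0518), and the smallest over 15 alternatives was 0.00522. Its call between the doses was lost without the 5 µM replicate 2 (adjusted p = 0.0515), the largest over 15 alternatives, which began at 0.00149.

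Timp3 (ENSMUSG00000020044, GRCm38 chromosome 10, 86300372 to 86349506), the inhibitor that stays bound to the matrix and also blocks Adam17, fell the most of the inhibitors at 10 µM. It stood at 57.8 and 59.7 FPKM with PBS, 31.3 and 24.8 FPKM at 5 µM, and 16.1 and 14.3 FPKM at 10 µM. No groups overlapped. The mean was 47.7% of the PBS mean at 5 µM and 25.9% at 10 µM. The log2 change against PBS was -1.05 ± 0.12 at 5 µM and -1.88 ± 0.12 at 10 µM (limma adjusted p = 0.00257 and 0.000137), and -0.83 ± 0.12 between 10 µM and 5 µM (limma adjusted p = 0.00801). Timp3 shares 1733 exon bases with Syn3 on the opposite strand, a gene at 0.33 to 1.55 FPKM.

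Proteases and inhibitors thus moved to lower totals together. The summed level of the 7 MMPs was 353 ± 3.64 FPKM with PBS, 226 ± 10.2 FPKM at 5 µM and 168 ± 0.138 FPKM at 10 µM. The summed level of the 3 TIMPs was 356 ± 19.6 FPKM with PBS, 205 ± 19.8 FPKM at 5 µM and 178 ± 1.05 FPKM at 10 µM. Neither sum overlapped between any 2 groups. The MMP sum divided by the TIMP sum was 1.04 and 0.946 in the PBS samples, 1.06 and 1.15 in those given 5 µM KN93, and 0.948 and 0.939 in those given 10 µM KN93, so the 5 µM samples were the highest. Within the MMP sum, Mmp9 held 32.2% to 33.3% with PBS, 15.6% to 15.9% at 5 µM and 10.0% to 10.9% at 10 µM. Mmp14 held 22.1% to 24.4% with PBS, 28.7% to 29.3% at 5 µM and 33.1% to 33.3% at 10 µM, the largest share at both doses. Within the TIMP sum, Timp3 held 16.1% to 16.9% with PBS, 12.95% to 14.3% at 5 µM and 8.01% to 9.10% at 10 µM. These are transcript levels, and they do not give the amount or the activity of the proteins.

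**Figure D4:**
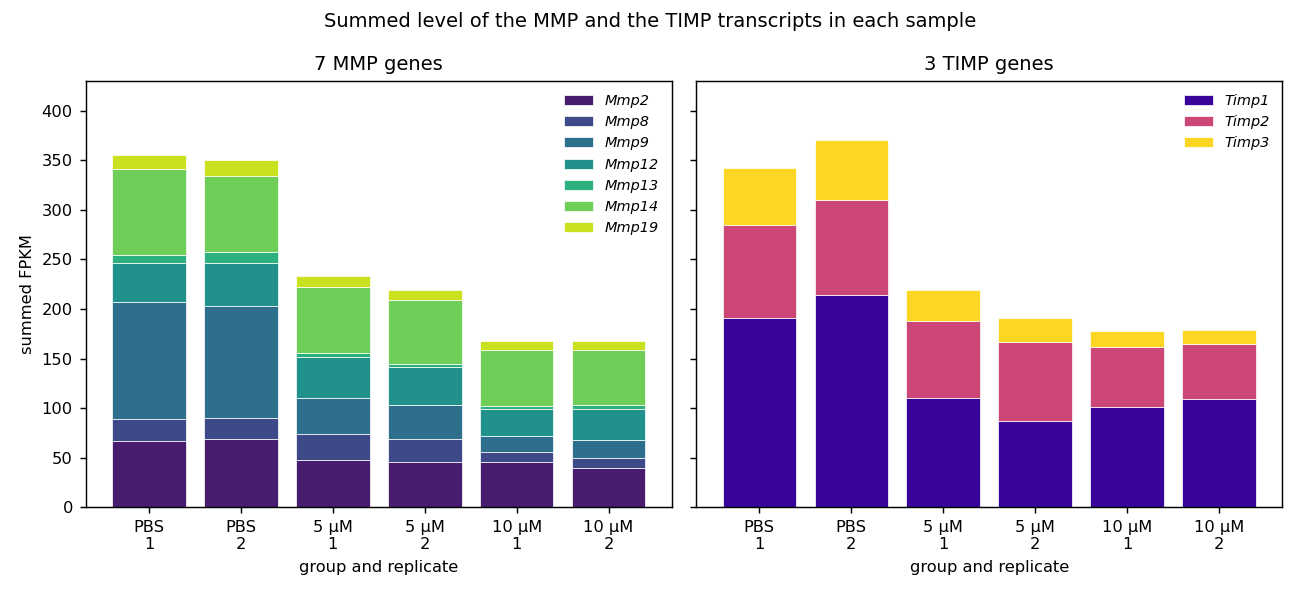
Summed FPKM (vertical axis, from 0) of the 7 MMP genes (left) and the 3 TIMP genes (right) in each of the 6 samples, with a coloured segment for each gene. Both stacks shorten with dose, to about 168 and 178 FPKM at 10 µM, and the Mmp9 segment takes a smaller share at each dose.

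Other genes of the MMP system were followed in lists. Of 17 further MMP and TIMP genes, 3 passed the expression filter, 11 were below it and 3 were listed at 0 in every sample. Mmp23, an MMP anchored to the membrane, fell to 4.51 and 4.35 FPKM at 5 µM and to 4.90 and 4.55 FPKM at 10 µM, against 9.94 and 7.90 FPKM with PBS (limma adjusted p = 0.0034 and 0.00195). Mmp27 is given above. Mmp11 (stromelysin 3), which furin activates inside the cell, stood at 2.64 and 2.54 FPKM with PBS, 3.44 and 2.58 FPKM at 5 µM, and 3.08 and 2.38 FPKM at 10 µM, with overlapping samples and no call.

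Of 13 ADAM and ADAMTS genes tested, relatives of the MMPs that shed cell surface proteins or cut proteoglycans, 9 fell and 1 rose at 10 µM, and 8 fell and 1 rose at 5 µM. Adamts12, counted among the falls at both doses, passed the expression filter through the PBS samples alone, so it could be counted only as a fall. It was at 1.96 and 2.01 FPKM with PBS, 0.466 and 0.410 FPKM at 5 µM, and 0.242 and 0.116 FPKM at 10 µM. Over all genes tested, 22% fell and 28.5% rose at 10 µM and 15.4% fell and 15.1% rose at 5 µM, with medians of 0.05 and 0.01. The list median was -0.96 at 10 µM and -0.54 at 5 µM. Adam33 was the gene that rose, with 3.43 and 3.27 FPKM at 5 µM and 6.24 and 7.04 FPKM at 10 µM, against 1.51 and 1.37 FPKM with PBS (limma adjusted p = 0.0014 and 5.96e-05). Adam10, which encodes a sheddase of Notch receptors and many other proteins, fell to 33.9 and 31.7 FPKM at 10 µM, against 66.6 and 69.6 FPKM with PBS (limma adjusted p = 7.55e-05). Adamts2, which encodes a procollagen peptidase, fell to 4.84 and 4.28 FPKM at 10 µM, against 13.0 and 12.5 FPKM with PBS (limma adjusted p = 7.37e-05). Adam17, the sheddase of TNF that Timp3 inhibits, was at 40.4 and 43.5 FPKM at 10 µM and 45.2 and 41.2 FPKM with PBS, with a log2 change of -0.04 (limma adjusted p = 0.633).

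Of 16 genes for activation, inhibition and clearance of MMPs, 11 fell and 1 rose at 10 µM, where 22% of all genes fell and 28.5% rose, and 9 fell and 1 rose at 5 µM, where 15.4% fell and 15.1% rose. The list median was -0.70 at 10 µM and -0.44 at 5 µM. The 5 µM count was 5 falls and no rise without the PBS replicate 1. Thbs1 and Thbs2, which encode thrombospondins that bind MMPs and aid their uptake, fell at 10 µM, Thbs1 by a log2 change of -3.57 and Thbs2 by -3.04 (limma adjusted p = 5.71e-05 and 8.42e-05). Itgb3, which encodes the integrin chain β3, rose to 7.37 and 7.44 FPKM at 10 µM, against 1.62 and 1.48 FPKM with PBS (limma adjusted p = 3.26e-05). Among the genes of the protease side, Plat, which encodes the tissue plasminogen activator, fell to 0.225 and 0.107 FPKM at 10 µM, against 1.25 and 1.23 FPKM with PBS (limma adjusted p = 0.00144). It passed the expression filter through the PBS samples alone. Plau (urokinase), its receptor gene Plaur and Furin had log2 changes of -0.21, 0.19 and -0.08 at 10 µM, none of them called (limma adjusted p = 0.175, 0.219 and 0.355). These 4 were chosen for mention after their values were seen.

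Of 17 genes of matrix substrates, 11 fell and none rose at each dose against PBS, where 22% of all genes fell at 10 µM and 15.4% at 5 µM. The list median was -1.09 at 10 µM and -0.88 at 5 µM. Col1a1, a chain of the type I collagen that collagenases cut, fell to 168 and 153 FPKM at 10 µM, against 831 and 781 FPKM with PBS (limma adjusted p = 5.71e-05). Col5a1 and Col5a2, chains of type V collagen, fell at 10 µM, Col5a1 by a log2 change of -2.69 and Col5a2 by -1.70 (limma adjusted p = 8.46e-05 and 7.35e-05). Several of these collagen genes are also fibroblast markers.

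Of 23 genes for transcription factors with known sites in MMP promoters, 8 fell and 6 rose at 10 µM, and 9 fell and 2 rose at 5 µM. Ets1, counted among the falls at both doses, would not have passed the expression filter without the PBS samples. It was at 1.87 and 1.84 FPKM with PBS, 1.11 and 0.813 FPKM at 5 µM, and 0.835 and 0.453 FPKM at 10 µM. Of all genes tested, 22% fell and 28.5% rose at 10 µM, and 15.4% fell and 15.1% rose at 5 µM. The list median was -0.03 at 10 µM and -0.21 at 5 µM. The 5 µM count was between 5 and 7 calls without any 1 of the PBS or 5 µM samples. Fos, an AP-1 subunit, stood at 38.1 and 38.0 FPKM with PBS, 14.2 and 11.3 FPKM at 5 µM, and 7.83 and 7.07 FPKM at 10 µM. It fell at each dose, with log2 changes of -1.52 at 5 µM and -2.21 at 10 µM (limma adjusted p = 0.000707 and 6.87e-05). Etv5, an ETS factor of the PEA3 group, fell to 4.70 and 3.48 FPKM at 10 µM, against 21.8 and 22.9 FPKM with PBS (limma adjusted p = 0.000199). Jund, another AP-1 subunit, rose to 27.8 and 27.4 FPKM at 10 µM, against 17.4 and 19.5 FPKM with PBS (limma adjusted p = 0.00103).

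**Figure D5:**
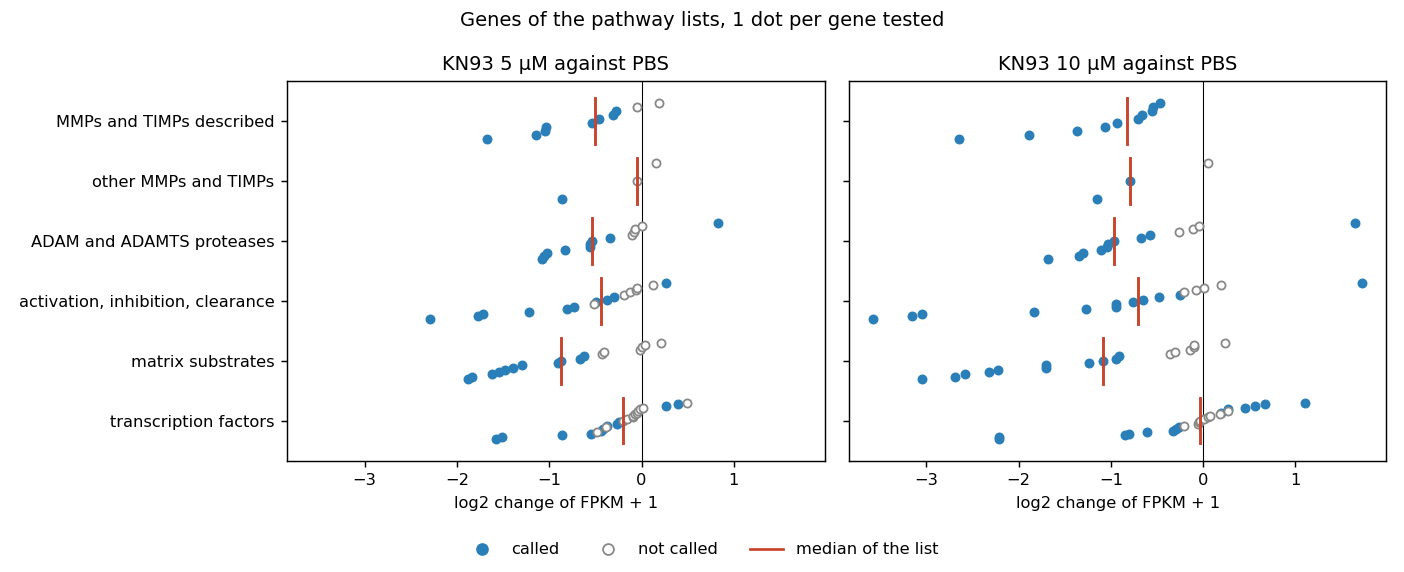
Log2 change of FPKM + 1 (horizontal axis) of every gene tested in each list, at 5 µM (left) and at 10 µM (right) against PBS, with filled dots for called genes, open dots for genes not called and a red bar for the list median. The transcription factors spread to both sides of 0, while 9 of 13 ADAM and ADAMTS genes and 11 of 17 substrates are called lower at 10 µM.

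Patterns over the 6 samples were compared by the root mean square difference between log2(FPKM + 1) profiles, each centred on its own mean, among 10855 candidate genes. This is a description of these 6 samples, in which many genes share a dose order. The nearest to Mmp9 were Tmem176b, Has2, which encodes a hyaluronan synthase, and Pald1, at differences of 0.0558, 0.0862 and 0.112. Has2 stood at 6.38 and 7.15 FPKM with PBS and 0.293 and 0.258 FPKM at 10 µM. In proportion it fell more than Mmp9, and the 1 FPKM added before the log narrowed that gap. Tmem176b stood at 128 and 114 FPKM with PBS, 39.3 and 39.4 FPKM at 5 µM, and 19.1 and 20.7 FPKM at 10 µM. The nearest to Mmp8 were Ly6i, the chemokine receptor gene Cxcr3 and the protease gene Adam8, at 0.129, 0.153 and 0.156, the least close matches of any member.

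Adam8, which neutrophils and macrophages express, stood at 216 and 234 FPKM with PBS, 226 and 202 FPKM at 5 µM, and 115 and 103 FPKM at 10 µM. The nearest to Timp1 were Tnfrsf12a, Lmcd1 and Pdlim7, and the nearest to Timp3 were Arg2, Dok2 and Trib1, at 0.0534 to 0.0922 for these 6 genes. The nearest to Mmp13 were Aurka, Foxs1 and Sertad4, at 0.0612 to 0.0882. The nearest to Mmp12 were Eif2s3x, Galc and Abhd17a, at 0.0563 to 0.0622. The nearest to Mmp2 were Cbx5, Cdh2 and Mrc2, to Mmp14 Cd276, St3gal4 and Anxa6, to Mmp19 Crem, Abcg2 and Anxa2, and to Timp2 Heatr1, Glns-ps1 and Ncapg2, at 0.0255 to 0.0369. Of the genes named as nearest, Sertad4, Abcg2 and Glns-ps1 passed the expression filter through the PBS samples alone. Foxs1 would not have passed without them.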

How the data were processed

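The authors deposited FPKM values for 54446 genes in 6 samples. Columns were matched to samples by their titles, which follow a shared prefix, DXM. Its meaning is not stated, so a treatment common to all 6 samples cannot be told apart from none. HISAT2 and the build GRCm38 are named in the submitters' processing notes. They do not state the counting tool, annotation, use of strand or filters. GENCODE M21 matched 99.9% of gene IDs and gave coordinates and exon lengths. FPKM times exon length came out whole within 0.1 fragment for 98.8% to 99.0% of values of up to 20 fragments, which gave the depth and the fragments of each gene.

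The 12722 genes that reached 1 FPKM in 2 or more samples were tested. The deposited values were put on a log2(FPKM + 1) scale and went into limma 3.58.1 under R 4.3.3 (intensity trend, 3 groups, 6 samples in a single fit, 3 residual degrees of freedom and 2.72 added). The pseudocount of 1 FPKM understates the change of low genes. With 2 samples against 2, an exact permutation test cannot go below p = 0.333 and was not used. Replicates of a group differed by more than counting noise (median chi-square per gene of 1.08 to 1.61, where counting noise gives 0.455). Every member is named. From each list the 3 genes with the smallest p at 10 µM and, for each member, the 3 genes with the most like pattern are named, and a few others appear with the comparison they belong to, chosen after their values were seen. The members and lists were chosen with earlier results of these data known. Alternatives were other pseudocounts, filters and scalings, no trend, 2 groups only, the replicate number as a block, voom on recovered fragments, and each sample left out.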

Additional observations from a re-analysis of the deposited data

How the results depend on the processing

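No member changed direction in a called result under any alternative run. At 10 µM against PBS all 10 members were called in each of the 15 alternatives, and at 5 µM the count ran from 6 to 8. Between 10 µM and 5 µM it ran from 3 to 6 where 1 sample was left out. The number of all genes called at 5 µM against PBS was 3881 and ran from 1897 to 3856 where 1 sample was left out, with every value of 2135 or below coming from a fit that left 1 PBS or 5 µM sample. Between 10 µM and 5 µM it was 2536, ran from 869 to 1922 where 1 sample was left out, and was 1350 with no expression filter, which tested 30856 genes. For 10 µM against PBS it ran from 4575 to 5977 without 1 sample. A lone sample in an arm was taken to vary like the other groups. With the replicate number as a block, 3409, 6023 and 2079 genes were called at 5 µM against PBS, at 10 µM against PBS and at 10 µM against 5 µM, and the members called were 8, 10 and 5. The numbers only name the samples: deviations of same-numbered samples correlated at -0.055 to 0.0373 between groups. Under the block the dose step calls of Mmp9 and Timp1 were lost (adjusted p = 0.0533 and 0.0724). The alternatives for dose steps and lists were chosen after seeing the data. The depth was enough for every member (203 fragments or more), and the number of samples, 2 per group, limits the precision.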
